A study of Mus musculus with 8 samples.

Results

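The vascular endothelial growth factor (VEGF) family was examined through 7 genes, the ligand genes Vegfa, Vegfb, Vegfc and Pgf and the receptor genes Flt1, Kdr and Flt4, out of 20352 genes measured. A member was defined by the probe sets whose annotation carried its symbol alone, which gave 130 of 241576 probe sets. No probe set of the 7 was shared with another symbol. Vegfa had 14 probe sets, Vegfb 9, Vegfc 8, Pgf 8, Flt1 33, Kdr 29 and Flt4 29. RNA came from the whole cerebellum of mice aged 28 days, 4 with the genotype label Cic-L-null and 4 labelled wild-type, with 1 Mouse Gene 1.0 ST array from Affymetrix for each animal. All 8 animals had the same mixed Swiss Webster (CD-1) background. Cic-L names the long form of Capicua, a repressor that binds DNA and is relieved by receptor tyrosine kinase signalling, and the labels name no other allele, no Cre line and no treatment.

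VEGF-A is the main growth factor of blood vessels. It binds Flt1 (VEGFR1), which takes up ligand with little signalling, and Kdr (VEGFR2), the receptor that carries most of its signal through ERK. VEGF-B and placental growth factor, the product of Pgf, bind Flt1, whereas VEGF-C binds Flt4 (VEGFR3) of lymphatic and sprouting vessels and, once processed, Kdr. Brain glia and neurons make VEGF-A and endothelial cells carry most of the receptors, and in the developing cerebellum Kdr has also been described on migrating granule neurons. Ligand release rises when hypoxia stabilises the HIF transcription factors.

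The sequences before the starts of Kdr and Flt1 are shown because these are the receptors of VEGF-A, with the widest difference of the family in Kdr and a narrow one in Flt1. Each is the 250 bases before an annotated start, from RefSeq in build GRCm38.p6, on the minus strand and written in the direction of the gene. Capitals mark the hypoxia core GCGTG on either strand, where it reads CACGC on the other strand. The Kdr stretch lies at chr5:75978456-75978705 and the Flt1 stretch at chr5:147726012-147726261.
Kdr: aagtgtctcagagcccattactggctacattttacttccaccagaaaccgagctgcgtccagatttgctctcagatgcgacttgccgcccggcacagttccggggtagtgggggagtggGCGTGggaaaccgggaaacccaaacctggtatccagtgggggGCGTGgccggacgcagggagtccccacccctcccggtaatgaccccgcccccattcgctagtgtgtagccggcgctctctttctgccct
Flt1: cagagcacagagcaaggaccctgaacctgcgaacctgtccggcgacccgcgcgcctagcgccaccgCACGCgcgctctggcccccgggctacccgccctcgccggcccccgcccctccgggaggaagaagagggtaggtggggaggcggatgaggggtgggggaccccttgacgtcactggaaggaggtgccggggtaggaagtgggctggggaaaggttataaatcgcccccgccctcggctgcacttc

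Both strands of such stretches were searched for TGAATGAA and TGAATGGA, the octamers that Capicua is known to bind, and for the hypoxia cores ACGTG and GCGTG. RefSeq held 9 starts for the 7 members. An octamer was found in 0 of the 9, against 2.07% of 32851 starts of all genes. A hypoxia core was found in 5 of the 9, against 38.6% of all starts, with GCGTG 2 times before Kdr and 1 time before Flt1. For Vegfa, the stretch at chr17:46025164-46025413 held each core 1 time. The Vegfa stretch at chr17:46032378-46032627 held 0 of either. On the minus strand the former lies downstream of it, past that start. The 5 with a core thus count a Vegfa stretch that does not lie before the upstream Vegfa start. These are matches of letters in a short window and were not measured as binding. By the same annotation Kdr and Flt1 lie on chromosome 5, Vegfa on 17, Vegfb on 19, Vegfc on 8, Pgf on 12 and Flt4 on 11, and Cic on chromosome 7.

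Values are log2 RMA values made by the authors, and a gene value is the mean over its probe sets. Differences are Cic-L-null minus wild-type, tested with limma over all genes. The level of 1 gene cannot be set against that of another on this scale. Cic itself fell by 1.25 (SE 0.12, adjusted p = 0.00818 with limma), and the granule cell gene Gabra6 stood at 12.41 in Cic-L-null and 12.45 in wild-type. The label of wild-type replicate 1 names an RNA extraction that the other 7 labels do not. Y-linked genes were high in Cic-L-null replicates 1, 2 and 4 and wild-type replicates 1 and 4, and low in the other 3 arrays. The array number limits the precision, with a median SE of 0.077 over all genes.

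No VEGF ligand or receptor passed the test over all genes. At an adjusted p under 0.05, 0 of the 7 were called, against 0.138% of all genes. Kdr was the 1 member of 7 with an unadjusted p under 0.05, where the share of all genes was 9.26%. In none of the 7 did the groups separate without overlap, against 5.94% of all genes (3.02% with Cic-L-null higher and 2.91% with it lower). Differences were above 0 for 4 members and below 0 for 3, with a median of 0.026, and 47.0% of all genes were above 0 with a median of -0.0071.

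**Figure D1:**
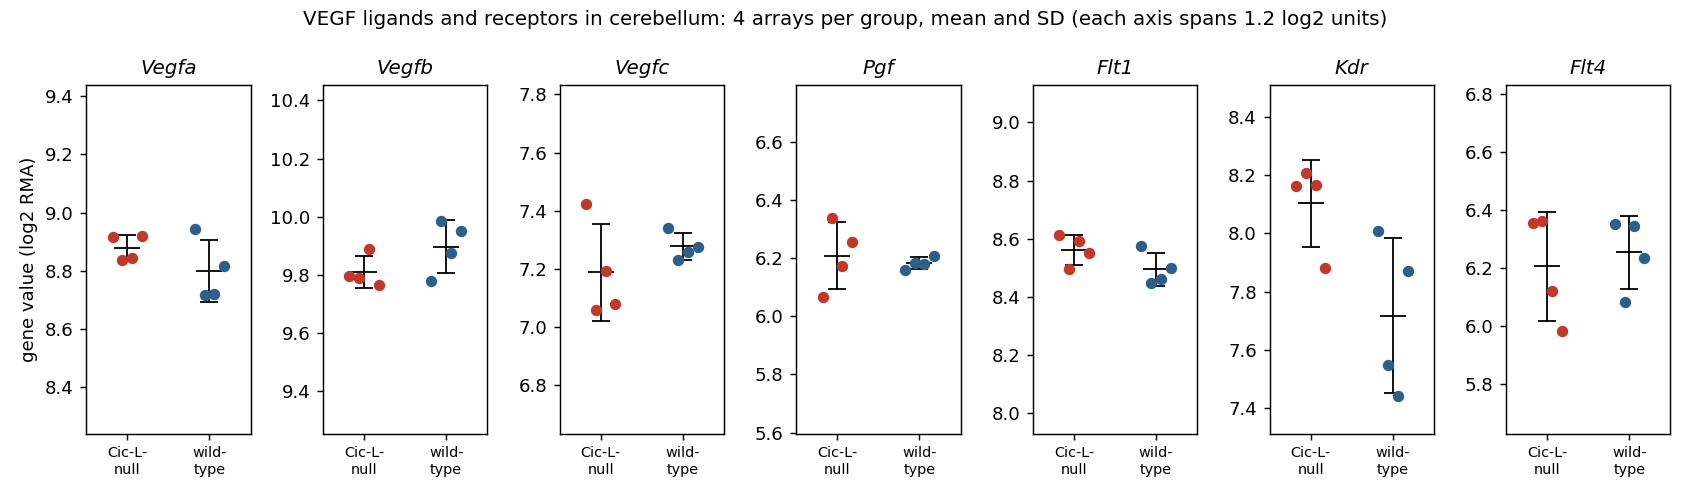
Gene value (log2 RMA) of the 7 VEGF genes in each array, Cic-L-null in red and wild-type in blue, with mean and SD of 4 arrays; every vertical axis spans the same range. The Kdr means lie farthest apart at 8.10 and 7.72, and in each panel the arrays of the groups overlap.

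Kdr, the main signalling receptor, gave the largest difference of the family. Its gene value was 8.16, 8.21, 8.17 and 7.88 in Cic-L-null replicates 1 to 4, against 8.01, 7.55, 7.44 and 7.87 in wild-type replicates 1 to 4. Cic-L-null replicates 1 to 3 lay above every wild-type array, whereas Cic-L-null replicate 4 lay below wild-type replicate 1. The means were 8.10 ± 0.15 in Cic-L-null and 7.72 ± 0.27 in wild-type (SD, n = 4 each). The difference was 0.39 (SE 0.13), or 1.31-fold, and the adjusted p was 0.337 with limma over all genes. Its 95% interval ran from 0.11 to 0.67, which is 1.08-fold to 1.59-fold. By unadjusted p (0.0114) Kdr ranked 688 of 20352 genes.

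Most Kdr probe sets were higher in Cic-L-null. Of its 29 probe sets, 27 had a higher mean in Cic-L-null, with a median difference of 0.36, against 51.6% above 0 and a median of 0.0068 over all probe sets. Probe sets of 1 gene share the same RNA and are not independent. In 3 of the 29 the groups did not overlap, all 3 higher in Cic-L-null, where 2.39% of all probe sets separated in that direction. An unadjusted p under 0.05 was seen in 7 of the 29, or 24.1%, against 6.8% of all probe sets.

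Probe set 10530698 had the smallest p among those of Kdr. It read 10.35, 10.51, 10.56 and 10.26 in Cic-L-null, against 10.13, 9.97, 9.91 and 10.03 in wild-type, which differ by 0.41 (SE 0.10, limma adjusted p = 0.499 over all probe sets). Every Cic-L-null array stood above every wild-type array there. Probe set 10530711 read 8.58, 8.55, 8.29 and 7.94 in Cic-L-null, against 8.11, 7.29, 7.33 and 7.76 in wild-type, and was picked after its values were seen. Here wild-type replicate 1 exceeded Cic-L-null replicate 4, the same overlap as in the gene value.

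The highest Kdr difference, 1.21 (SE 0.55) in probe set 10530712, and the lowest, -0.13 (SE 0.74) in probe set 10530706, were both in dim probe sets. A dim limit of 6.29 for probe sets was taken as the 95th percentile of the means of 1182 olfactory receptor probe sets, genes that cerebellum is not known to use. Of the 24 Kdr probe sets above it, 23 were higher in Cic-L-null with a median difference of 0.30. The 5 at or below it had a median of 0.65, with 4 higher. Counted by array, 25, 24, 24 and 8 of the 29 probe sets lay above their own median over the 8 arrays in Cic-L-null replicates 1 to 4, against 18, 4, 4 and 9 in wild-type replicates 1 to 4. By this count Cic-L-null replicate 4 was the lowest of its group and wild-type replicate 1 the highest of its own. Both positions came from many probe sets and not from a single one. The files do not place these on the transcript.

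**Figure D2:**
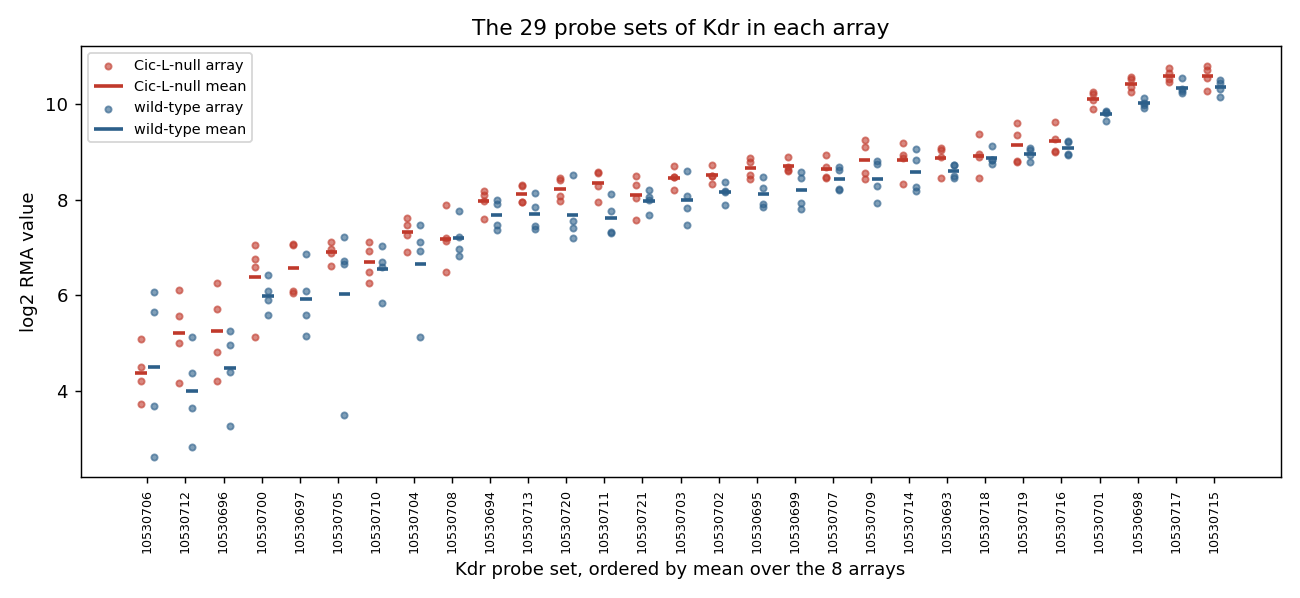
The 29 Kdr probe sets, ordered by mean level, with the log2 RMA value of each array as a point and the mean of each group as a bar, Cic-L-null (red) left of wild-type (blue). The Cic-L-null mean is above the wild-type mean in 27 of 29.

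Kdr also differed with the sex-linked signal in wild-type, with 2 arrays on each side. The wild-type arrays with high Y-linked values, replicates 1 and 4, had the higher Kdr values. Replicate 1 is also the array whose label names an RNA extraction. In Cic-L-null, replicate 3 with low Y-linked signal stood at 8.17, inside the range of the other mutants from 7.88 to 8.21. Among the arrays with high Y-linked signal Kdr averaged 8.08 in 3 Cic-L-null and 7.94 in 2 wild-type arrays, a difference of 0.14. Among the others it stood at 8.17 in 1 Cic-L-null array and averaged 7.49 in 2 wild-type arrays, a difference of 0.67. These splits were not tested. With the Y-linked signal as a covariate the difference was 0.33 (SE 0.12, adjusted p = 0.446 with limma).

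Flt1, the receptor that limits free VEGF-A, was nearly level between the groups. Its gene value was 8.61, 8.50, 8.59 and 8.55 in Cic-L-null, against 8.57, 8.45, 8.46 and 8.50 in wild-type. The arrays interleaved, with wild-type replicate 1 inside the range of the mutants. The difference was 0.067 (SE 0.057, adjusted p = 0.806 with limma), and its 95% interval from -0.060 to 0.19 bounds it between 0.96-fold and 1.14-fold. Of its 33 probe sets, 22 were higher and 11 lower in Cic-L-null, with a median difference of 0.080. In 1 of the 33, probe set 10535813, the groups did not overlap. It read 8.28, 8.38, 8.36 and 8.15 in Cic-L-null, against 8.40, 8.43, 8.75 and 8.84 in wild-type. Its difference of -0.31 (SE 0.13, adjusted p = 0.718 with limma) opposed that of the gene, and 1.91% of all probe sets separated in that direction. The widest differences of Flt1 probe sets were -0.45 (SE 0.19) in 10535823 and 0.40 (SE 0.22) in 10535828, with overlap in both. The soluble form of Flt1 has an end of its own in the transcript, but the files do not say which part each probe set reads.

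Flt4, the VEGF-C receptor, lay close to 6.21, the dim limit for gene values (the same percentile over 967 olfactory receptor genes). It read 6.36, 6.36, 6.12 and 5.98 in Cic-L-null, against 6.35, 6.08, 6.35 and 6.23 in wild-type, with full overlap. The difference was -0.048 (SE 0.099, adjusted p = 0.935 with limma), and 13 of its 29 probe sets were above the dim limit for probe sets. Of the 29, 15 were higher and 14 lower in Cic-L-null, with a median of 0.0028.

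Of the Flt4 probe sets, 2 differed by more than 1 log2 unit. Probe set 10375591 read 7.06, 6.62, 6.90 and 6.51 in Cic-L-null, against 5.51, 5.56, 5.18 and 5.65 in wild-type. The lowest mutant array was well above the highest wild-type array. The difference was 1.30 (SE 0.15), or 2.46-fold. By unadjusted p this probe set ranked 43 of 241576, with an adjusted p of 0.135 with limma over all probe sets. Its mean over all arrays was below the dim limit. Probe set 10375583 differed by 1.11 (SE 0.32) with overlap, through wild-type replicate 1 at 6.05, and falls outside the naming rule. The lowest Flt4 difference was -0.79 (SE 0.39) in probe set 10375602. The other probe sets of Flt4 thus bore no common shift.

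Over all 130 probe sets of the family, 0 were called at an adjusted p under 0.05 with limma, and 0.000414% of all probe sets were. An unadjusted p under 0.05 was found in 12 of the 130 (9.23%), 9 higher and 3 lower, against 6.8% of all probe sets. The groups did not overlap in 5 of the 130 (3.85%), 4 higher and 1 lower, against 4.3% of all probe sets.

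**Figure D3:**
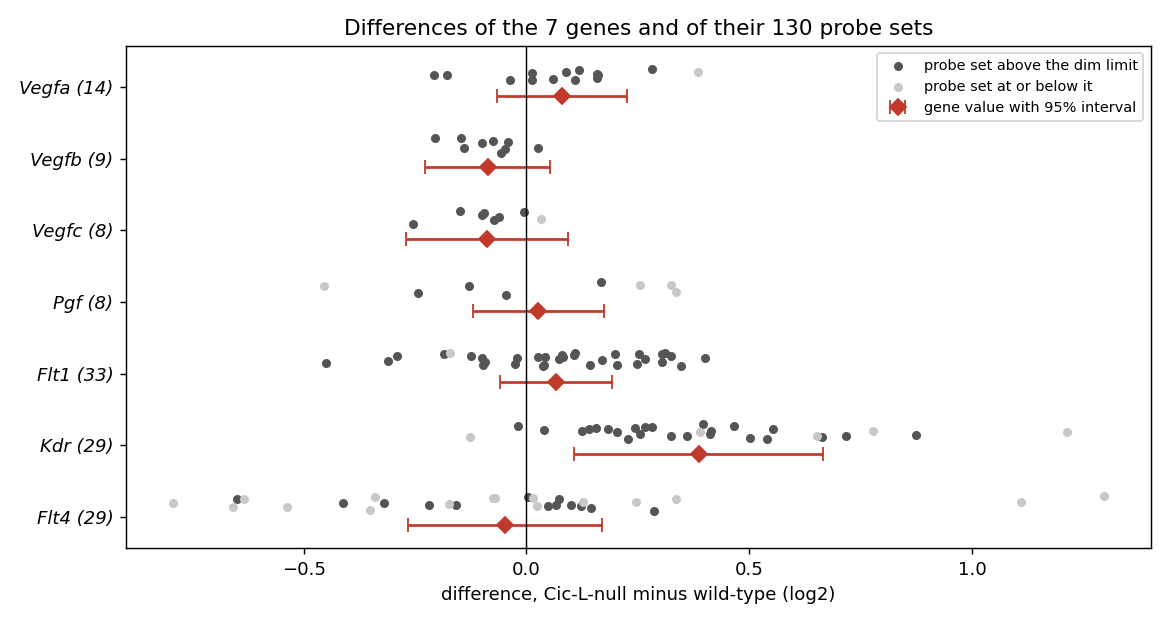
Difference, Cic-L-null minus wild-type (log2), of each gene value with its 95% interval (red) and of each of the 130 probe sets (grey, lighter at or below the dim limit). Kdr is the gene whose interval, from 0.11 to 0.67, does not reach 0, and Flt4 probe set 10375591 is the rightmost point at 1.30.

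Among the ligands, Vegfa read 8.91, 8.84, 8.85 and 8.92 in Cic-L-null, against 8.94, 8.71, 8.72 and 8.82 in wild-type. Cic-L-null arrays lay close together, whereas wild-type replicate 1 was the highest of all 8 and replicates 2 and 3 the lowest. The difference was 0.080 (SE 0.066, adjusted p = 0.794 with limma), with a 95% interval from -0.066 to 0.23. Of 14 probe sets, 11 were higher and 3 lower, and all 14 overlapped. The probe set with the smallest p, 10451201, differed by 0.28 (SE 0.15), and the range ran from -0.21 (SE 0.21) in 10451212 to 0.39 (SE 0.44) in 10451203. With the median of the probe sets in place of their mean, the Vegfa difference was -0.10 (adjusted p = 0.841), so its direction was not settled.

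Vegfb, a ligand of Flt1 abundant in heart and brain, read 9.80, 9.79, 9.89 and 9.77 in Cic-L-null, against 9.78, 9.98, 9.88 and 9.95 in wild-type. Wild-type replicate 1 was low and sat among the mutants. The difference was -0.087 (SE 0.063, adjusted p = 0.755 with limma), and 8 of 9 probe sets were lower in Cic-L-null, each with overlap. The probe set with the smallest p, 10465563, differed by -0.15 (SE 0.097). The probe sets ranged from -0.20 (SE 0.16) in 10465569 to 0.027 (SE 0.10) in 10465567. The interval from -0.23 to 0.053 bounds it between 0.854-fold and 1.04-fold.

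Vegfc, the lymphatic ligand, read 7.42, 7.06, 7.19 and 7.08 in Cic-L-null, against 7.34, 7.23, 7.26 and 7.28 in wild-type. Cic-L-null replicate 1 was above all wild-type arrays and the other 3 mutants were below them. The difference was -0.088 (SE 0.082, adjusted p = 0.825 with limma), and 7 of 8 probe sets were lower. Without Cic-L-null replicate 1 the difference was -0.17 (adjusted p = 0.554), and without Cic-L-null replicate 2 it was -0.046. The lowest probe set difference was -0.26 (SE 0.15) in 10571794 and the highest 0.032 (SE 0.22) in 10571796.

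Pgf read 6.07, 6.34, 6.17 and 6.26 in Cic-L-null, against 6.16, 6.18, 6.18 and 6.21 in wild-type. Its mean over all arrays was below the dim limit of 6.21, and the mutant arrays lay on both sides of the tightly grouped wild-type arrays. The difference was 0.026 (SE 0.066, adjusted p = 0.951 with limma), with 4 of 8 probe sets higher and 4 lower, from -0.46 (SE 0.27) in 10401609 to 0.34 (SE 0.21) in 10401610. With the median of its probe sets the Pgf difference was 0.24 (adjusted p = 0.608), and from those above the dim limit -0.063 (adjusted p = 0.873). Over the 6 members other than Kdr the 95% intervals lay between -0.27 and 0.23, and the adjusted p between 0.755 and 0.951.

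The members were also set against each other over the 8 arrays, with exact permutation of the pairings over 21 pairs and Benjamini-Hochberg adjustment. Vegfc and Pgf ran opposite, with r = -0.91 (exact p = 0.00186, adjusted p = 0.0391) and rho = -0.79 (exact p = 0.0279, adjusted p = 0.196), and with r = -0.79 without the 2 arrays farthest from the Vegfc median. Within the groups, as residuals from the group means, r was -0.93. Pgf lay near the dim limit throughout. Vegfa and its receptor Flt1 ran together, with r = 0.85 (exact p = 0.00903, adjusted p = 0.0948) and rho = 0.79 (exact p = 0.0279, adjusted p = 0.196), and with r = 0.62 without the 2 arrays farthest from the Vegfa median. Vegfa and Vegfb had r = -0.78 (exact p = 0.0246, adjusted p = 0.16) and rho = -0.81 (exact p = 0.0218, adjusted p = 0.196), with r = -0.76 without 2 arrays. Vegfa and Kdr had r = 0.74 (exact p = 0.0380, adjusted p = 0.16) and rho = 0.52 (exact p = 0.197, adjusted p = 0.688), which fell away to r = -0.12 without the 2 arrays farthest from the Vegfa median. Flt1 and Kdr had r = 0.75 (exact p = 0.0341, adjusted p = 0.16) and rho = 0.60 (exact p = 0.132, adjusted p = 0.556), with r = 0.61 without the 2 arrays farthest from the Flt1 median. Of the 21 pairs, only Vegfc with Pgf passed after adjustment, by r and not by rho.

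The genes whose values were most like those of Kdr over the 8 arrays were Fbxo10 (r = 0.99), Tex2 (r = 0.98) and Susd2 (r = 0.97), the highest of 13996 genes above the dim limit. For Flt1 they were Nlgn3 (r = 0.96), Fbrs (r = 0.95) and Vash1 (r = 0.95), and for Vegfa Lta4h (r = 0.99), Xpot (r = 0.98) and Pdxdc1 (r = 0.97). Vegfb was closest to Fzd10os (r = 0.96), Zfp623 (r = 0.95) and Ppie (r = 0.94), and Vegfc to Zfp809, Chst11 (both r = 0.97) and Arhgef17 (r = 0.95). Pgf was closest to Fat4 (r = 0.94), Rbm3 (r = 0.92) and 8430432A02Rik (r = 0.91), and Flt4 to Acad8, Psat1 (both r = 0.95) and Bpnt1 (r = 0.93). These correlations were ranked over all those genes and are given as a description.

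Kdr and Flt1 are carried by endothelial cells, so the markers of these cells are set beside them. In whole tissue fewer cells of a type and less RNA per cell cannot be told apart. Of 26 endothelial markers measured, 23 had a lower and 3 a higher mean in Cic-L-null, with a median difference of -0.069 and none called. An unadjusted p under 0.05 was seen in 2 higher and 3 lower markers, where 4.56% of all genes were higher and 4.7% lower by that measure. Their mean over the list ran from 7.73 to 7.88 in Cic-L-null and from 7.80 to 7.91 in wild-type. Kdr thus stood opposite in sign to most markers of the cells that carry it. Kdr minus the marker mean was 0.435, 0.48, 0.28 and 0.12 in Cic-L-null replicates 1 to 4, against 0.10, -0.25, -0.36 and -0.033 in wild-type replicates 1 to 4. Every mutant array exceeded every wild-type array by this measure, the closest pair being Cic-L-null replicate 4 and wild-type replicate 1. Flt1 minus the marker mean was 0.88, 0.77, 0.71 and 0.78 in Cic-L-null, against 0.67, 0.65, 0.66 and 0.59 in wild-type. These too did not overlap, although the gene values of both Flt1 and Kdr did. Only the comparison between arrays can be read from these differences of log2 values. They were formed after the values were seen and were not tested. The marker mean was 7.73, 7.73, 7.88 and 7.77 in Cic-L-null, against 7.91, 7.80, 7.80 and 7.90 in wild-type. A lower marker mean raises this measure for any gene, and the share of all genes that separate by it was not counted.

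Single endothelial genes went both ways. Vwf, the clotting factor stored in endothelium, differed by 0.45 (SE 0.098, adjusted p = 0.136 with limma). It read 7.44, 7.88, 7.91 and 7.70 in Cic-L-null, against 7.34, 7.26, 7.22 and 7.32 in wild-type, so that the groups did not overlap. Itm2a, a membrane protein of brain endothelium, differed by -0.39 (SE 0.090, adjusted p = 0.159), and the tight junction gene Cldn5 by -0.27 (SE 0.070, adjusted p = 0.218), both without overlap. The defining genes Pecam1 and Cdh5, named after their values were seen, differed by -0.078 (SE 0.085) and -0.061 (SE 0.085) with overlap. Slco1a4, outside the naming rule, had the widest difference of the list at -0.58 (SE 0.32, adjusted p = 0.651 with limma). It read 7.67, 7.72, 9.185 and 8.89 in Cic-L-null, against 8.85, 9.11, 8.62 and 9.21 in wild-type. Its low values in Cic-L-null replicates 1 and 2 also enter the marker mean.

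**Figure D4:**
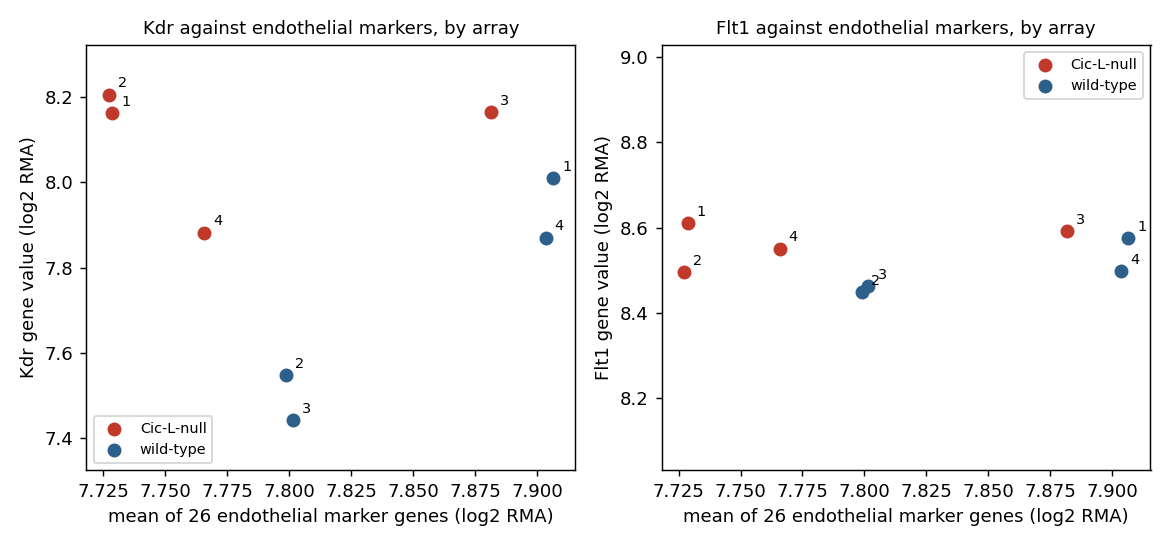
Kdr (left) and Flt1 (right) gene value of each array against the mean of 26 endothelial marker genes, both in log2 RMA units, with replicate numbers beside the points; Cic-L-null is red and wild-type blue. Cic-L-null replicates 1, 2 and 4 lie at the left with marker means of 7.73 to 7.77, and their Kdr values of 7.88 to 8.21 are above those of wild-type replicates 2 and 3.

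Other vascular lists shifted little. Pericyte and smooth muscle markers had 9 of 16 above 0 with a median of 0.010, with list means from 7.28 to 7.40 in Cic-L-null and 7.25 to 7.39 in wild-type. The smooth muscle gene Tagln differed by 0.33 (SE 0.094, adjusted p = 0.267 with limma), Notch3 by 0.13 (SE 0.065) and Vtn by -0.12 (SE 0.074). Fenestrated and lymphatic endothelial markers had 7 of 9 above 0, with a median of 0.028. The fenestral diaphragm gene Plvap differed by -0.15 (SE 0.082) and the lymphatic gene Lyve1 by 0.14 (SE 0.083). Reln, also a gene of cerebellar granule cells, differed by 0.32 (SE 0.064, adjusted p = 0.0964). None of these was called.

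The list of VEGF co-receptors and binding partners, which also took in semaphorins, held 1 called gene. Of 20 measured, 11 were above 0 and 9 below, with a median of 0.0059, and 1 fell, against 0.0491% of all genes that did. This was Sema3c, a secreted semaphorin whose receptors include the VEGF co-receptors of the neuropilin family, at -0.47 (SE 0.065, adjusted p = 0.0258 with limma). Sema3c read 6.34, 6.49, 6.30 and 6.42 in Cic-L-null, against 6.84, 6.76, 6.94 and 6.89 in wild-type, with a wide gap between the groups. The co-receptor genes themselves, named after their values were seen, were Nrp1 at 0.20 (SE 0.076, adjusted p = 0.423) and Nrp2 at 0.12 (SE 0.071, adjusted p = 0.689). Nrp1 read 7.42, 7.19, 7.32 and 7.30 in Cic-L-null, against 7.23, 7.15, 6.94 and 7.10 in wild-type, where only Cic-L-null replicate 2 fell below a wild-type array. Vegfd, the remaining lymphatic ligand, differed by 0.029 (SE 0.059), with its mean over all arrays below the dim limit of 6.21.

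Genes that carry the signal of the receptors were flat. Of 27 measured, 13 were above 0 and 14 below, with a median of -0.0063, and 0 were called with limma or had an unadjusted p under 0.05. The smallest p belonged to the focal adhesion gene Pxn at 0.098 (SE 0.062), the kinase gene Prkcb at 0.079 (SE 0.054) and the ERK gene Mapk3 at 0.079 (SE 0.060). Of the oxygen sensing genes, 9 of 12 were above 0 with a median of 0.056 and none was called. Ppargc1a, a coactivator known to induce VEGF-A in muscle, differed by 0.26 (SE 0.079, adjusted p = 0.294), and the HIF genes Epas1 and Hif1a by 0.17 (SE 0.064, adjusted p = 0.435) and 0.12 (SE 0.061, adjusted p = 0.604).

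HIF target genes showed no common direction. Of 23 measured, 13 were above 0 and 10 below, with a median of 0.015, and 1 rose, against 0.0884% of all genes. It was the carbonic anhydrase gene Car9 at 0.52 (SE 0.064, adjusted p = 0.0206 with limma), which read 8.17, 8.23, 8.01 and 8.23 in Cic-L-null, against 7.61, 7.67, 7.60 and 7.67 in wild-type. The classical targets Slc2a1 and Ldha, named after their values were seen, differed by -0.046 (SE 0.065) and -0.11 (SE 0.066). Among 27 other angiogenic genes 18 were above 0 with a median of 0.069 and none was called. Angpt2, a ligand of the Tek receptor that loosens vessels, differed by 0.42 (SE 0.086, adjusted p = 0.113) and read 6.22, 6.28, 6.05 and 6.26 in Cic-L-null, against 5.83, 5.74, 5.61 and 5.97 in wild-type. The groups did not overlap, but its mean was below the dim limit. The Notch target gene Hey1 differed by 0.21 (SE 0.057, adjusted p = 0.251) and the apelin receptor gene Aplnr by -0.34 (SE 0.12, adjusted p = 0.376).

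**Figure D5:**
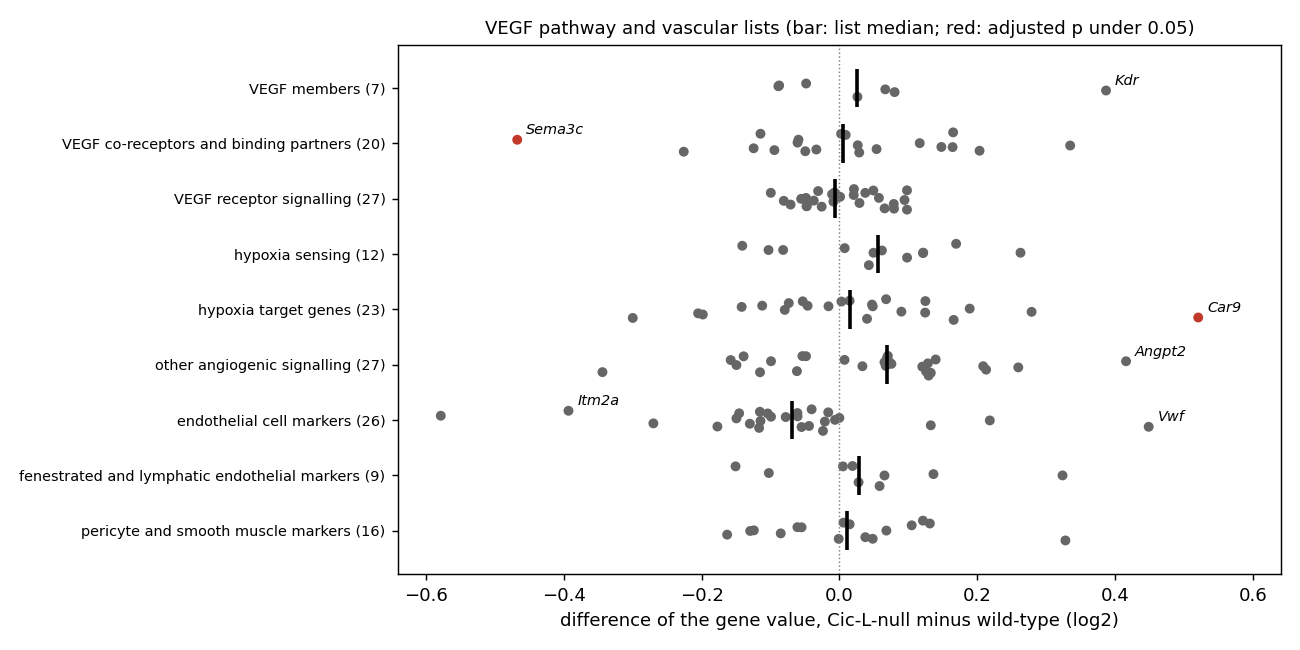
Difference of the gene value (log2, Cic-L-null minus wild-type) of each measured gene in 9 lists, number of genes in brackets, with the list median as a bar and genes past an adjusted p of 0.05 in red. Only Sema3c at -0.47 and Car9 at 0.52 are red, and list medians lie between -0.069 and 0.069.

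Cells that make or receive VEGF-A in cerebellum were read from their own markers. Bergmann glia and astrocyte markers had 11 of 16 below 0 with a median of -0.059 and list means from 9.94 to 10.001 in Cic-L-null and from 10.03 to 10.16 in wild-type. Fabp7, a fatty acid binding protein of these glia, fell by 1.17 (SE 0.14, adjusted p = 0.0180 with limma). The glial list means did not overlap, a separation that depended on including Fabp7. Fabp7 was not the only lower marker. An unadjusted p under 0.05 was seen in 4 lower and 0 higher glial markers, against 4.7% and 4.56% of all genes. Without overlap between the groups were 4 lower markers and 1 higher, against 2.91% and 3.02% of all genes. Fabp7 is among the 4 in both counts, and no other glial marker was called. Fabp7 read 9.44, 9.23, 9.29 and 8.93 in Cic-L-null, against 10.43, 10.34, 10.07 and 10.72 in wild-type. Granule cell markers had 7 of 12 above 0 with a median of 0.019, and list means from 11.56 to 11.61 in Cic-L-null and from 11.50 to 11.63 in wild-type. Purkinje cell markers had 8 of 11 above 0 with a median of 0.053, and list means from 10.27 to 10.31 in Cic-L-null and from 10.14 to 10.30 in wild-type. An unadjusted p under 0.05 was seen in 4 of the 11, all 4 higher, against 4.56% of all genes. The groups did not overlap in 3, all 3 higher, against 3.02% of all genes. None was called. The smallest p belonged to Lhx1 at 0.24 (SE 0.062, adjusted p = 0.213 with limma), Cacna1g at 0.19 (SE 0.061) and Rora at 0.165 (SE 0.054). Oligodendrocyte markers were below 0 in 10 of 10 with a median of -0.13, and list means from 9.82 to 9.93 in Cic-L-null and from 9.96 to 10.10 in wild-type, also without overlap.

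The list means of neighbouring tissue overlapped between the groups. Choroid plexus and ependymal markers, whose tissue is rich in VEGF-A and fenestrated vessels, had 8 of 11 below 0 with a median of -0.030, and list means from 7.33 to 8.18 in Cic-L-null and from 7.73 to 8.14 in wild-type. Meningeal fibroblast markers had 7 of 12 below 0 with a median of -0.090 and list means from 7.80 to 7.97 in Cic-L-null and from 7.79 to 7.93 in wild-type. In 2 of the 12 the groups did not overlap, both lower in Cic-L-null, where 2.91% of all genes separated in that direction. These were Igf2 at -0.22 (SE 0.068, adjusted p = 0.302 with limma) and Pdgfra, outside the naming rule, at -0.14 (SE 0.067, adjusted p = 0.590). Microglia markers had 6 of 11 above 0 with a median of 0.019, and blood cell markers 3 of 4 above 0 with a median of 0.076. Of these lists no gene was called. Of 12 genes of Capicua and its known targets 10 were above 0 with a median of 0.26. Of the 12, 3 were called higher, against 0.0884% of all genes. These were Dusp4 by 0.94 (SE 0.14, adjusted p = 0.0301 with limma), Per2 by 0.75 (SE 0.11, adjusted p = 0.0397) and Dusp6, outside the naming rule, by 0.49 (SE 0.076, adjusted p = 0.0447). Cic, itself 1 of the 12, was called lower, against 0.0491% of all genes. This list too was chosen with earlier results of these data known. The part of any of these cell types in the values of the VEGF genes was not tested.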

How the data were processed

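Gene expression was read from 8 arrays, 4 Cic-L-null and 4 wild-type. The deposited values are log2 values that the authors made with RMA; the submitters' processing notes name Affymetrix Power Tools, without a version or genome build. Gene names came from the deposited platform annotation, which is old. Of 241576 probe sets, 212097 carried 1 symbol, 4475 several and 25004 none. Of 20416 symbols, 17621 were current in GRCm38.p6, 2742 were updated through a synonym and 53 kept, giving 20352 genes. Gene values and probe sets were compared in R 4.3.3 by limma 3.58.1 (linear fit and empirical Bayes, group as the only term, Benjamini-Hochberg adjustment over all genes or all probe sets). On simulated data from the 20352 gene values with 200 changed, 72.7% of those of size 0.5 (log2) and 96.7% of those of size 1 were called. Members, lists and the rule for named genes (members, list genes called or with the 3 smallest p, and the 3 genes most correlated with each member) were chosen with earlier results of these data known. Alternatives covered probe set summary, dim limits, normalisation, variance model, array weights, covariates and left-out arrays.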

Additional observations from a re-analysis of the deposited data

Results flagged for a closer look

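In groups of 4 arrays, the farthest array's gap to its nearest neighbour was set against the group's range for 73 named genes and probe sets, 146 groups in all. Chance gives about 1 flag in 20 groups, and 8 were seen. Kdr stood at 7.88 in Cic-L-null replicate 4, below the other mutants at 8.16 to 8.21. Aldh1a2, a meningeal gene, stood at 7.27 in the same array, below the others at 7.47 to 7.49. Mapk3 stood at 9.85 in Cic-L-null replicate 1, above the others at 9.70 to 9.72. Itm2a stood at 10.08 in Cic-L-null replicate 3, above the others at 9.69 to 9.75. Etv1 stood at 11.52 in wild-type replicate 1, above the others at 11.22 to 11.27. Cic-L-null replicate 3 was also apart in the sex-linked genes, with Xist at 10.55 and Kdm5d and Eif2s3y at 5.26 and 4.19, as the 1 mutant array with low Y-linked signal.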

How the results depend on the processing

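No VEGF gene was called in any of the 19 alternatives (18 for Pgf, which was absent above the dim limit), and no member probe set was called in any of 15. Kdr stayed above 0 in all 19, from 0.29 without wild-type replicate 3 to 0.48 without wild-type replicate 1, with adjusted p from 0.148 to 0.602. Its 27 higher probe sets numbered 25 to 29 with each array left out, and the 23 lower endothelial markers 20 to 22. Kdr within arrays of low Y-linked signal, a split chosen after seeing the data, was 0.67, and within those of high signal 0.14. Vegfb and Vegfc kept their sign in all 19, but Vegfc was -0.17 (adjusted p = 0.554) without Cic-L-null replicate 1 and -0.046 without replicate 2, and -0.039 from probe set medians. Vegfa was 0.052 to 0.13 with each array left out, highest without wild-type replicate 1 and lowest without wild-type replicate 2. With the median of the probe sets, Vegfa was -0.10, Flt1 -0.035, Flt4 0.053 and Pgf 0.24 (unadjusted p = 0.0493, adjusted p = 0.608). Flt4 was also 0.0014 with array weights, and -0.11 to 0.026 with each array left out. Pgf was -0.063 from probe sets above the dim limit, and -0.017 to 0.073 with each array left out. The cause was not tested. The count of called genes, 28, became 2 from probe set medians, 69 among genes above the dim limit, 130 with a trended and robust variance, 54 with array weights, 18 with a Y-linked covariate, 0 with unmoderated tests and 0 to 37 with each array left out, lowest without Cic-L-null replicate 2. With the replicate number as a replicate block it was 0, and Kdr was 0.39 (adjusted p = 0.359). Same-numbered arrays correlated in their residuals at 0.219, 0.000325, 0.207 and 0.0262, and 4 of 8 arrays correlated best with their own number. These values do not settle whether the numbers mark pairs, and the main fit did not treat them as pairs. Probe sets near the dim limit, most of those of Flt4, limit what can be read from that gene.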
